A study of Mus musculus with 6 samples.

Results

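Heparan sulfate is a sugar chain carried by cell surface and matrix proteins, and growth factors such as FGF bind to it through patterns of sulfate groups. Enzymes of the Golgi build the chain and place the sulfates, and secreted sulfatases take some of them off again outside the cell. Cultured neural stem cells depend on added bFGF, whose receptor complex contains heparan sulfate, so these enzymes bear on how such cells can read their growth factor. The set described here holds 10 enzymes of chain synthesis and editing, of which 9 were measured, among 19937 genes with a probe set of their own. Genes were chosen by symbol from probe sets that the platform annotation pairs with exactly 1 gene. Each of the 9 enzymes had 1 such probe set, so the rule of taking the probe set with the highest mean removed none. Ndst1 was not analysed here. The set was proposed with the difference between the genotypes in view, so its members' differences are given as a description, with errors and intervals but without a test of their own.

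Neural stem cells and progenitors were isolated from mice of the 129SV strain at 8 weeks of age, in 2 genotypes. NestinCre;Sirt1lox/lox mice carried floxed Sirt1 and Cre recombinase driven by the Nestin promoter, active in neural stem and progenitor cells, and their cultures are described as lacking active SIRT1 (Sirt1 inactive, n = 3). Sirt1lox/lox mice carried the same floxed alleles and no Cre (control, n = 3), so an effect of Cre itself cannot be told apart from that of SIRT1, an NAD-dependent deacetylase. All cultures were expanded as neurospheres with EGF and bFGF, plated on poly-D-lysine and collected while proliferating at passage 2. The titles call the samples biological replicates, with the number of mice behind each culture not given in the sources used here. Each sample was read on 1 Affymetrix array, and values are log2 RMA values, on which 1 unit is a doubling of signal.

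Array medians lay between 7.36 and 7.39. Sirt1 itself read 8.26, 8.33 and 8.25 in Sirt1 inactive cultures, against 8.73, 8.78 and 8.55 in control cultures, a difference of -0.41 (SE 0.08) that did not pass over all probe sets (limma, adjusted p = 0.959). Of 9 measured progenitor markers, 8 read above the array medians on every array, among them Nes (11.55 to 11.70), Sox2 (11.60 to 11.78) and Fabp7 (13.19 to 13.46), and Prom1 read 7.08 to 7.64. Of 6 microglial markers, 5 read below the array medians on every array, from Ptprc (5.78 to 5.98) to P2ry12 (6.91 to 7.28), and Cx3cr1 read 7.60 to 7.76; such levels do not show whether those cells were present. Control replicate 3 lay apart from the rest, with a median absolute distance of 0.117 to the mean of the other arrays, where the remaining arrays had 0.059 to 0.089.

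Of the 9 enzymes, 4 varied far more between cultures than most probe sets did, and 3 varied less than the median probe set. The range over the 6 arrays was 2.78 for Sulf1, 1.56 for Hs3st1, 1.18 for Hs3st2 and 1.13 for Hs6st2, each wider than the range of over 98% of the 22961 probe sets tested. The range was 0.41 for Sulf2 and 0.39 for Ext1, wider than that of 78.6% and 76.1% of all probe sets, and 0.22 for Hs2st1, 0.22 for Hs6st1 and 0.21 for Ndst2, where the median over all probe sets tested was 0.27. The steadiest genes are thus an N-sulfotransferase, the 2-O-sulfotransferase and 1 of the 6-O-sulfotransferases, and the most variable ones are both 3-O-sulfotransferases, the other 6-O-sulfotransferase and 1 of the sulfatases. No member passed the test between genotypes, where 0% of all probe sets passed (limma, adjusted p under 0.05), with or without the replicate number as a block. The median difference over the 9 members was -0.02, and over all probe sets tested it was also -0.02. Without control replicate 3 the medians were -0.12 and -0.01.

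**Figure D1:**
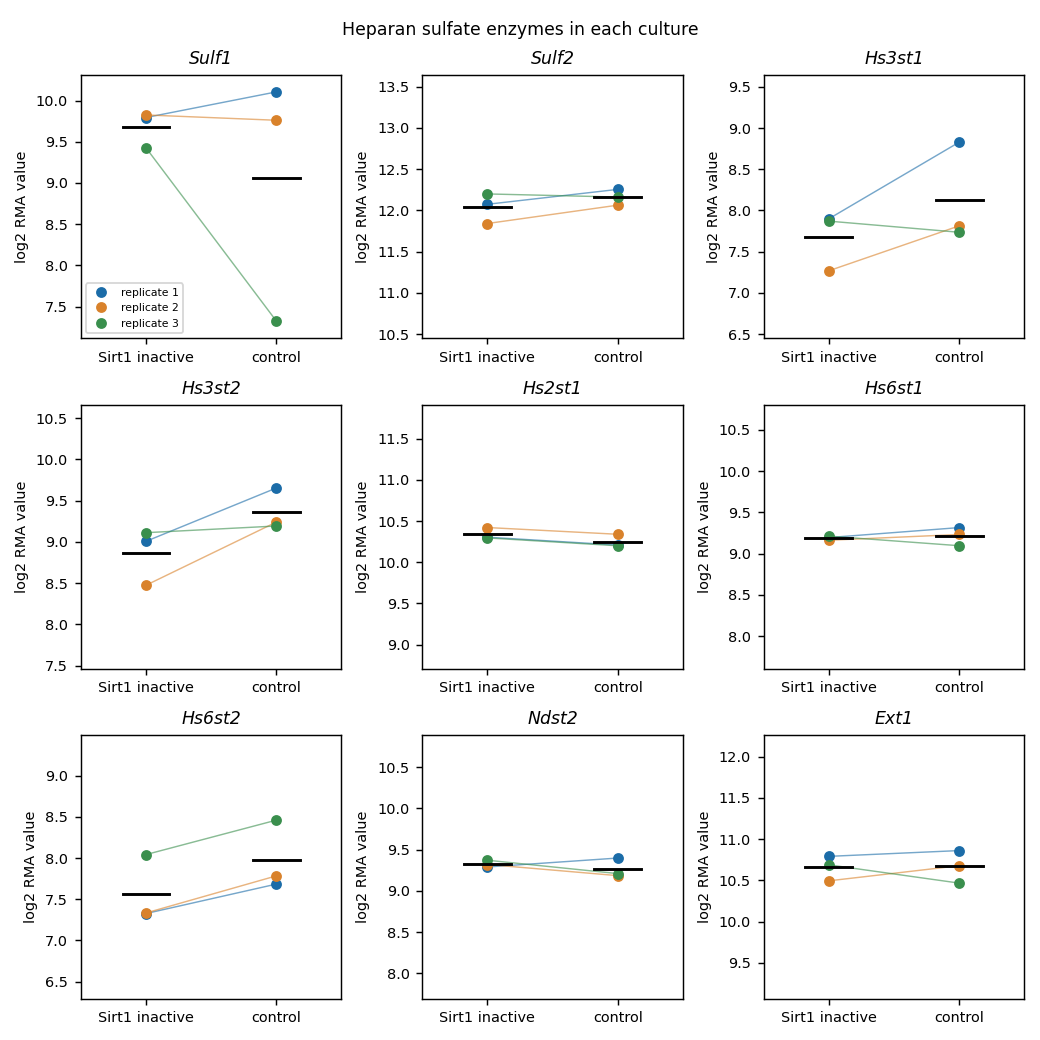
Log2 RMA values of the 9 measured enzymes, with the Sirt1 inactive cultures left and the control cultures right in each panel; points are arrays, coloured and joined by replicate number, black bars are group means, and every panel spans the same number of log2 units around its own level. Sulf1 is spread by control replicate 3 at 7.33, Hs3st2 is lower in every Sirt1 inactive culture, and Hs2st1, Hs6st1 and Ndst2 lie almost flat.

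Ext1 and Ndst2 differed little between the genotypes. Ext1, which with Ext2 lengthens the chain, read 10.79, 10.49 and 10.69 in Sirt1 inactive cultures, against 10.86, 10.68 and 10.47 in control cultures. The groups overlapped fully, and the difference was -0.01 (SE 0.12, 95% interval -0.29 to 0.27), or -0.11 without control replicate 3. Ndst2, an N-deacetylase and N-sulfotransferase of the step that opens the chain to all later sulfation, read 9.29, 9.32 and 9.37 in Sirt1 inactive cultures, against 9.40, 9.18 and 9.21 in control cultures, a difference of 0.06 (SE 0.07, 95% interval -0.11 to 0.24). The control value of replicate 1 was the highest of all, so these groups overlapped too.

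Hs2st1, which sulfates iduronic acid at the position that FGF2 binding needs, read 10.30, 10.42 and 10.29 in Sirt1 inactive cultures, against 10.21, 10.34 and 10.20 in control cultures. Its difference of 0.09 (SE 0.07, 95% interval -0.07 to 0.25) was small but even: it was 0.10, 0.08 and 0.10 in the same-numbered pairs 1, 2 and 3. Hs6st1, the 6-O-sulfotransferase found in most tissues, read 9.19, 9.16 and 9.21 in Sirt1 inactive cultures, against 9.32, 9.23 and 9.10 in control cultures, a difference of -0.02 (SE 0.07, 95% interval -0.19 to 0.14). The 3 Sirt1 inactive cultures lay inside the range of the control cultures. For Ext1, Ndst2, Hs2st1 and Hs6st1 the furthest reach of an unadjusted 95% interval, each taken alone, was 0.29 on the log2 scale.

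Hs6st2, a second 6-O-sulfotransferase with a narrower tissue distribution, read 7.33, 7.33 and 8.04 in Sirt1 inactive cultures, against 7.68, 7.78 and 8.46 in control cultures. Replicate 3 was the highest array of each genotype, so the groups overlapped, while every Sirt1 inactive culture was below the control of its own number, by -0.36, -0.45 and -0.42 in pairs 1, 2 and 3. The difference of -0.41 (SE 0.26, 95% interval -1.02 to 0.20) corresponds to 0.754 times the control level. In the fit with the replicate number as a block the same difference had an SE of 0.06 and an interval of -0.55 to -0.27, and it did not pass over all probe sets in that fit either. Lower values in all 3 pairs were seen for 2 of the 9 members, Hs6st2 and Hs3st2, and for 20.7% of all probe sets tested, and higher values in all 3 pairs for Hs2st1 alone and for 10.9% of all probe sets tested. Both shares lie near those of all probe sets. Without control replicate 3 and without a block, the difference of Hs6st2 was -0.17.

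**Figure D2:**
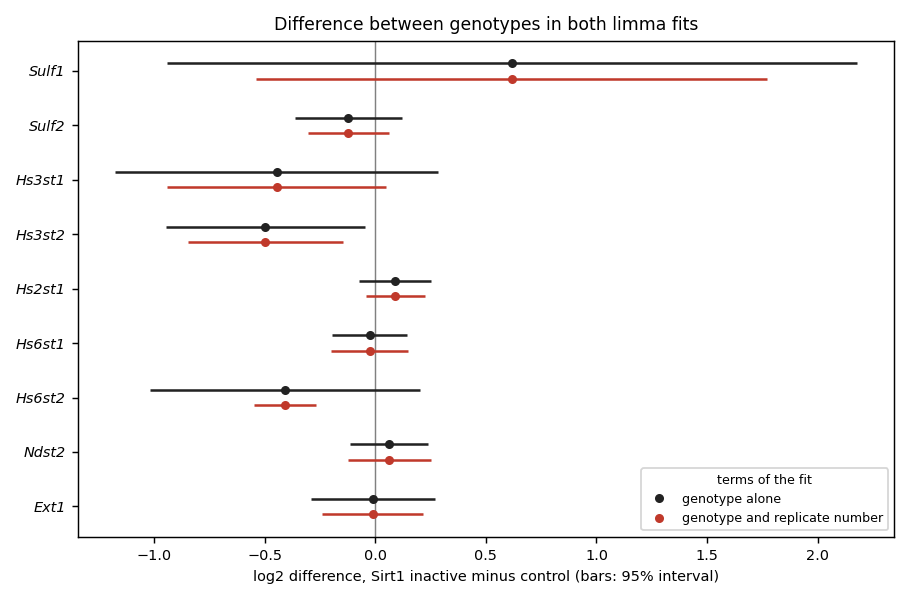
Log2 difference, Sirt1 inactive minus control, of each enzyme with its 95% interval, in the limma fit with genotype alone (black) and with genotype and replicate number (red). The interval of Hs6st2 narrows from -1.02 to 0.20 down to -0.55 to -0.27 with the replicate number in the fit, and that of Sulf1 spans 0 in both.

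The 3-O-sulfotransferases add the rarest sulfate of the chain, and their members make different binding sites: Hs3st1 makes the site for antithrombin, and Hs3st2 is an isoform known chiefly from brain. Hs3st2 read 9.01, 8.47 and 9.11 in Sirt1 inactive cultures, against 9.65, 9.24 and 9.19 in control cultures. The groups did not overlap, with all Sirt1 inactive cultures lower, although the highest of them lay only just under the lowest control. The difference of -0.50 (SE 0.19, 95% interval -0.95 to -0.05) corresponds to 0.708 times the control level. It was -0.65, -0.77 and -0.08 in pairs 1, 2 and 3. Hs3st2 was the only member whose groups did not overlap (1 of 9, lower), as did 6.71% of all probe sets tested in the direction lower and 2.62% in the direction higher. It was also the only member with an unadjusted p under 0.05, which 3.61% of all probe sets had; with the replicate number as a block 2 members (Hs3st2 and Hs6st2) and 7.58% of all probe sets had one.

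Hs3st1 read 7.90, 7.27 and 7.87 in Sirt1 inactive cultures, against 8.83, 7.81 and 7.74 in control cultures. Control replicate 1 was far above the rest and Sirt1 inactive replicate 2 far below, with the other 4 arrays between 7.74 and 7.90. The difference was -0.45 (SE 0.31, 95% interval -1.17 to 0.28), and -0.93, -0.54 and 0.14 in pairs 1, 2 and 3. Without control replicate 1 it was -0.09, and without Sirt1 inactive replicate 2 it was -0.24. Hs3st2 had the same highest array, control replicate 1, and the same lowest array, Sirt1 inactive replicate 2, and its differences without them were -0.35 and -0.30. In both genes the groups thus differed through pairs 1 and 2, and pair 3 gave the smallest difference.

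Hs3st1 and Hs3st2 shared their highest and lowest arrays. Other genes had the same ones, Sulf2, Ext2, Extl3 and Hs3st5 among them, and the share of all probe sets that did was not computed. The promoters of Hs3st1 and Hs3st2 are shown, as NCBI RefSeq's table for GRCm38.p6 gives them, from 250 bases before to 50 bases after the start of the gene and in the direction of transcription. Capitals mark matches on either strand to the motifs searched: the GC box core GGGCGG, the core of the cAMP response element TGACGT, the E-box CAGCTG and the TATA box TATAAA. The Hs3st1 promoter lies at chr5:39644582-39644881 on the minus strand and the Hs3st2 promoter at chr7:121392046-121392345 on the plus strand.
Hs3st1: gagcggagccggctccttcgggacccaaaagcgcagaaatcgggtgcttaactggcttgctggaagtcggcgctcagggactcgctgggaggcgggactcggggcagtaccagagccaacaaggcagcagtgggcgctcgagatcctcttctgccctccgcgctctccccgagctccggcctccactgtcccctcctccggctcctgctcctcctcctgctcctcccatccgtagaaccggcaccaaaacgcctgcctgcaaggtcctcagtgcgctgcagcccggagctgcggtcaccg
Hs3st2: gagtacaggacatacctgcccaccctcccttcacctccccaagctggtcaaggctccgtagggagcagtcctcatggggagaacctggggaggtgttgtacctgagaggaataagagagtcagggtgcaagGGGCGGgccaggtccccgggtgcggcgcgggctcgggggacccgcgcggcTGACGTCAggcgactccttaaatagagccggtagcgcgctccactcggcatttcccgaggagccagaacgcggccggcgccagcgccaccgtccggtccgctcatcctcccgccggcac
The bases G and C made up 67.0% of the Hs3st1 promoter and 67.7% of the Hs3st2 promoter. The Hs3st1 window held 0 matches to any of the 4 motifs. The Hs3st2 window held 1 GC box core, which 35.7% of the 32851 promoters in the table hold, and 2 matches to TGACGT, which 7.51% hold; these lie on opposite strands and overlap each other. Neither window held CAGCTG (16.3% of promoters) or TATAAA (13.6%). The sequences therefore shared base composition and none of these motifs.

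The other 3-O-sulfotransferases, part of a list of further chain modifiers, had differences of both signs. Hs3st3b1, an isoform that makes the entry site for a herpesvirus, read 9.58, 9.78 and 9.61 in Sirt1 inactive cultures, against 9.30, 9.59 and 9.07 in control cultures, a difference of 0.34 (SE 0.13) that did not pass (limma, adjusted p = 0.959) and was 0.21 without control replicate 3. It was higher in 3 of 3 pairs, and only the lowest Sirt1 inactive culture fell below the highest control. Hs3st3a1 differed by 0.02, Hs3st6 by 0.01, Hs3st5 by -0.06 and Hs3st4 by -0.13. Among the 7 isoforms of this step, then, Hs3st2 and Hs3st1 had the lowest differences and Hs3st3b1 the highest.

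Hs3st2 is made chiefly by neurons in brain, so the neuronal markers of the same arrays are given beside both genes. All 7 markers were below 0, where 60.1% of all probe sets tested were, with a median difference of -0.20, or -0.08 without control replicate 3. That array was the highest for 37.2% of all probe sets tested and for 6 of these markers. Their mean deviation from each gene's mean was -0.24 to -0.02 in Sirt1 inactive cultures, lowest in replicate 2, against 0.06 to 0.20 in control cultures. None of the 7 passed over all probe sets in the fits of 6 arrays. The direction was not particular to neuronal markers: all 6 microglial and all 5 measured oligodendrocyte markers were below 0 too. In contrast, 6 of 7 astrocyte markers were above 0, with a median difference of 0.27 that was -0.002 without control replicate 3. Stmn2, a tubulin-binding protein of neurons, read 7.90, 7.07 and 7.74 in Sirt1 inactive cultures, against 8.64, 7.89 and 6.94 in control cultures, and so shared its highest array with Hs3st1 and Hs3st2 but had its lowest in control replicate 3. Over all 6 arrays Stmn2 differed by -0.26 (SE 0.42), and by -0.74, -0.82 and 0.80 in pairs 1, 2 and 3. A paired fit of numbers 1 and 2 alone was added after the data were seen. It left out pair 3, where Hs3st2 differed by -0.08, so that choice favoured a pass of both genes. In it Stmn2 (-0.78) and Hs3st2 (-0.71) were both among the 19 probe sets that passed, as was Gpr17 (0.86), a marker of oligodendrocyte progenitors. Of the 6 markers of those progenitors, 3 had groups that did not overlap, all higher in Sirt1 inactive cultures, Pdgfra (0.79), Gpr17 (0.75) and Sox10 (0.28). Of all probe sets tested, 2.62% did not overlap in that direction. Control replicate 3 was the lowest array for all 3, and without it their differences were 0.42, 0.67 and 0.20. The other 3 markers were below 0, Olig2 (-0.15), Cspg4 (-0.12) and Olig1 (-0.07), and their groups overlapped. Without control replicate 3 these were -0.05, 0.11 and -0.05. None of the 6 passed over 6 arrays (limma, adjusted p = 0.959 for Pdgfra, Gpr17 and Sox10). The part of any of these cell types in the levels of Hs3st1 and Hs3st2 was not tested. In bulk cultures, fewer cells of a type and less RNA per cell cannot be told apart.

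The sulfatases Sulf1 and Sulf2 remove 6-O-sulfates from finished chains at the cell surface, which lowers FGF2 signalling and favours Wnt signalling in several cell types. Sulf2 was bright on every array and read 12.07, 11.84 and 12.20 in Sirt1 inactive cultures, against 12.25, 12.06 and 12.16 in control cultures. The groups overlapped, with a difference of -0.12 (SE 0.10, 95% interval -0.36 to 0.12). It was -0.02 without Sirt1 inactive replicate 2, -0.20 without Sirt1 inactive replicate 3 and -0.07 without control replicate 1. Sulf1 read 9.79, 9.82 and 9.43 in Sirt1 inactive cultures, against 10.10, 9.76 and 7.33 in control cultures. A single array, control replicate 3, lay over 2 units below all others, and the remaining 5 arrays lay between 9.43 and 10.10.

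The difference of Sulf1 was 0.62 (SE 0.66, 95% interval -0.94 to 2.18), the widest interval of the set. Without control replicate 3 it was -0.25 (SE 0.15, 95% interval -0.62 to 0.12), so its sign rested on that culture. In the same-numbered pairs it was -0.31, 0.06 and 2.10. For Sulf1 that culture differed by -2.46 from the mean of the other 5 arrays. Among all 22961 probe sets tested, 3 lay further below in that culture, those of Fndc3c1, E330013P04Rik and the glial filament gene Gfap, 3 genes named after their values were seen. In contrast, Hs6st2 lay 0.83 above the other arrays in control replicate 3, a distance that 126 probe sets exceeded. Control replicate 3 was the lowest of the 6 arrays for 4 of the 9 members and for 17.7% of all probe sets tested.

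**Figure D3:**
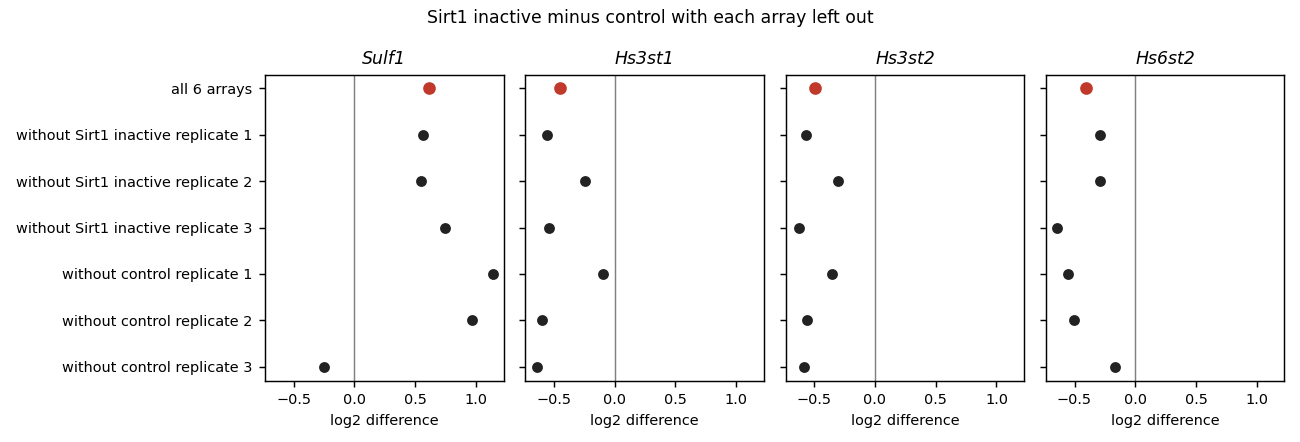
Log2 difference, Sirt1 inactive minus control, of the 4 enzymes that varied most, with all 6 arrays (red, top) and with each array left out in turn (black). The value of Sulf1 turns from 0.62 to -0.25 without control replicate 3, that of Hs3st1 comes to -0.09 without control replicate 1, and those of Hs3st2 and Hs6st2 stay below 0.

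The proteins that carry the chains and the FGF receptors that use them showed which genes were low together with Sulf1 in that culture. Of 14 core proteins, 6 had their lowest value in control replicate 3 and 2 their highest, where 17.7% and 37.2% of all probe sets tested had theirs. Gpc4, a glypican anchored to the membrane by a lipid, read 10.26, 9.92 and 10.33 in Sirt1 inactive cultures, against 10.47, 9.99 and 9.16 in control cultures. Sdc4, a transmembrane syndecan, read 11.02, 11.01 and 10.86 in Sirt1 inactive cultures, against 11.09, 10.83 and 10.15 in control cultures. Their differences of 0.29 (SE 0.31) and 0.27 (SE 0.22) did not pass (limma, adjusted p = 0.959 for both), and without control replicate 3 they were -0.06 and 0.001. Both thus differed between genotypes by little outside that culture.

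Of the 11 FGF ligands, receptors and binding proteins, 5 were lowest in control replicate 3 and 4 were highest there, as were 17.7% and 37.2% of all probe sets tested. Fgfrl1, an FGF receptor without a kinase domain, read 10.81, 10.83 and 10.79 in Sirt1 inactive cultures, against 10.70, 10.70 and 10.19 in control cultures. It was the only gene of the 8 further lists whose groups did not overlap in the direction higher. That is 1 of 75 measured genes, where 2.62% of all probe sets tested had such groups. The Fgfrl1 difference of 0.28 (SE 0.14) did not pass (limma, adjusted p = 0.959) and was 0.11 without control replicate 3. Fgf2, the ligand added to the medium as bFGF and here the cells' own transcript, read 7.69, 7.63 and 7.38 in Sirt1 inactive cultures, against 7.59, 7.45 and 7.06 in control cultures, a difference of 0.20 (SE 0.15, limma, adjusted p = 0.959) that was 0.05 without control replicate 3. Fgf9 differed by -0.16 (SE 0.09) and did not pass either. Fgfr2, named after its values were seen, read 9.25, 9.14 and 9.04 in Sirt1 inactive cultures, against 9.49, 9.12 and 8.03 in control cultures, so that its spread too came from control replicate 3.

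Most astrocyte markers were low in the same culture as Sulf1. Of 7 markers, 5 were lowest in control replicate 3, where 17.7% of all probe sets tested were lowest. S100b (8.13) and Slc1a2 (10.19) were not lowest there. The markers' mean deviations from each gene's mean were 0.07 to 0.26 in Sirt1 inactive cultures, against -0.81 to 0.19 in control cultures. Gfap read 10.12, 10.25 and 9.65 in Sirt1 inactive cultures, against 9.55, 9.87 and 7.41 in control cultures, and the water channel Aqp4 read 10.29, 10.57 and 10.05 in Sirt1 inactive cultures, against 10.37, 10.45 and 8.42 in control cultures. Markers of mural cells and fibroblasts were lowest there for 5 of 7, with mean deviations of 0.01 to 0.09 in Sirt1 inactive cultures, against -0.49 to 0.23 in control cultures. Progenitor markers too were lowest there for 6 of 9, with smaller mean deviations of -0.02 to 0.04 in Sirt1 inactive cultures, against -0.06 to 0.01 in control cultures. Of 6 oligodendrocyte progenitor markers, 3 were lowest and 3 highest there, where 17.7% and 37.2% of all probe sets tested were. The part of any of these cell types in the level of Sulf1 was not tested.

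**Figure D4:**
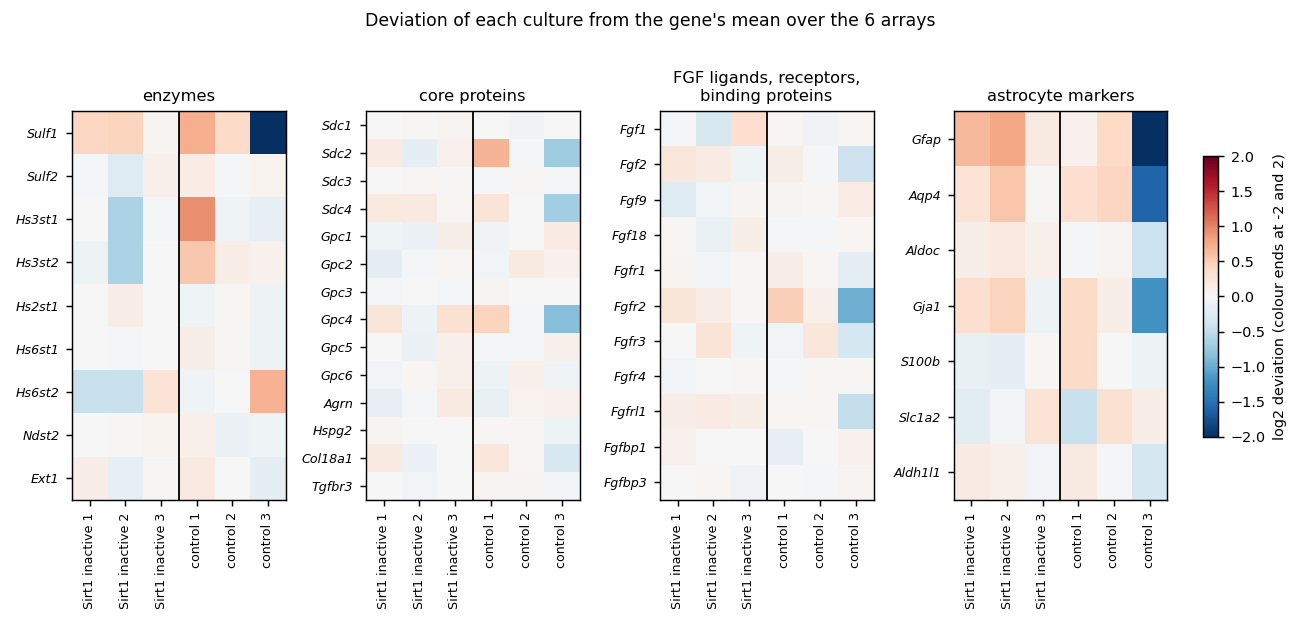
Deviation of each array from the gene's mean over the 6 arrays, in log2 units, for the 9 enzymes, 14 core proteins, 11 FGF ligands, receptors and binding proteins and 7 astrocyte markers, with Sirt1 inactive cultures left of the black line and control cultures right of it. Sulf1, Sdc2, Sdc4, Gpc4, Fgfr2, Gfap, Aqp4 and Gja1 are low (blue) in control replicate 3, while Hs6st2 is high (red) there.

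The rest of the pathway was measured by 8 further lists with 76 entries, 75 of them measured, and 0 passed in either direction over all probe sets, with or without the replicate block (limma). At an unadjusted p under 0.05 there were 3 of the 75, or 5 with the replicate block, close to the shares of 3.61% and 7.58% of all probe sets tested. Groups did not overlap in the direction lower for 6.71% of all probe sets tested and 4 of the 75, Pxylp1, Glce and Ids among them. In the direction higher it was 2.62% and 1 of the 75. Differences ranged from -0.24 to 0.34 with a median of -0.01, and 41 of 75 were below 0 where 60.1% of all probe sets tested were.

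In the linkage region, the short sugar bridge that joins the chain to its protein, 4 of 7 genes were above 0 and the median was 0.04. Pxylp1, the phosphatase that removes phosphate from the bridge's xylose, read 7.15, 7.19 and 7.22 in Sirt1 inactive cultures, against 7.24, 7.42 and 7.60 in control cultures, with no overlap and a difference of -0.24 (SE 0.10, limma, adjusted p = 0.959), or -0.14 without control replicate 3. B3galt6, a galactosyltransferase of the bridge, differed by 0.13, and Fam20b, the kinase that places the xylose phosphate, by -0.06. All 4 other polymerase genes were below 0 by similar amounts, Extl3 by -0.12, Extl2 by -0.11, Extl1 by -0.10 and Ext2, the partner of Ext1, by -0.09; Extl1 was at -0.001 without control replicate 3.

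Among the 9 further chain modifiers 6 were below 0, with a median of -0.06. Glce, the epimerase that turns glucuronic into iduronic acid and so makes the substrate of Hs2st1, read 8.67, 8.62 and 8.62 in Sirt1 inactive cultures, against 8.80, 8.72 and 8.93 in control cultures. The groups did not overlap, and the difference of -0.18 (SE 0.07) did not pass (limma, adjusted p = 0.959). Glce thus had lower values in the Sirt1 inactive cultures while Hs2st1, the enzyme of the next step, had slightly higher ones.

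Supply genes were the steadiest list, with 10 differences between -0.06 and 0.07. The smallest p belonged to Bpnt2, a Golgi phosphatase that clears the by-product of sulfation (0.05), the sulfate transporter Slc26a2 (0.07, or -0.02 without control replicate 3) and Bpnt1, its cytosolic relative (-0.06). Of 11 genes of sulfatase activation and chain breakdown 7 were below 0, with a median of -0.01. Ids, the lysosomal sulfatase that removes the 2-O-sulfate, read 10.56, 10.53 and 10.60 in Sirt1 inactive cultures, against 10.71, 10.63 and 10.76 in control cultures, with no overlap and a difference of -0.14 (SE 0.06, limma, adjusted p = 0.959). Hpse, the heparanase that cuts the chain, differed by -0.11 and the lysosomal glucuronidase Gusb by -0.10. Sumf1, which activates the sulfatases, Sulf1 and Sulf2 among them, differed by 0.02, a gene named after its values were seen.

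Core proteins had a median difference of 0.04, or -0.01 without control replicate 3, with 8 of 14 above 0, and Gpc2, a glypican of developing neurons, differed by -0.13 (SE 0.09). Of the 9 genes that FGF signalling switches on, 7 were below 0, with a median of -0.07, where 60.1% of all probe sets tested were below 0. Etv5, a transcription factor of this group, differed by -0.15 (SE 0.08), Spred2, an inhibitor of the RAS pathway, by -0.11 (SE 0.07), and Dusp6, an ERK phosphatase, by -0.08 (SE 0.06), and none passed (limma, adjusted p = 0.959 for each). These differences were no larger than 2 of their SEs.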

How the data were processed

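Total RNA of 6 cultures was labelled with biotin and hybridised to Affymetrix arrays that probe whole transcripts, with an array for each sample, per the labels. The authors deposited log2 values per probe set, background-adjusted and normalized with RMA, per the series' design text and the submitters' processing notes; the log2 scale was read from the values, which ran from 3.02 to 13.62. RMA's version and the build behind the probe annotation were not given in the sources used here. RMA evens out array-wide brightness and compresses dim differences, so a difference can understate the change in RNA. Arrays have no read depth, and their number limits the precision: the median SE of a difference was 0.08.

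The table has 34760 probe sets and 0 columns of other samples. The platform annotation pairs 21640 of them with 1 gene and 1321 with several genes; these 22961 were tested, and genes were named from the former, of which 21553 were found by Entrez identifier in NCBI RefSeq's table for GRCm38.p6, with 0 symbols changed. Genotype was the only term of the linear model, which R 4.3.3 and limma 3.58.1 fitted to the 6 arrays (empirical Bayes moderation, two-sided p, Benjamini-Hochberg over the tested probe sets, threshold 0.05). Differences are Sirt1 inactive minus control, and SEs and 95% intervals are limma's. The fit was tested on simulated data with independent arrays and shifts larger than any member's difference over the 6 arrays. That test does not cover small differences, pairing by replicate number or an outlying array.

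Replicate numbers come from the sample titles. Deviations from the group means correlated at 0.47, 0.36 and 0.27 within the same-numbered pairs, and at -0.32 to -0.02 between other numbers. Such deviations cancel out within a group, so positive values within pairs force negative ones elsewhere, which are not separate evidence. On this ground the numbers were taken to pair the samples, and the fit with the number as a block was an alternative. The members and lists were chosen with earlier results of these data known, so no member's difference is independent evidence. From each of the 8 further lists the 3 genes with the smallest unadjusted p are named. Two-sided p-values set the difference between genotypes against the spread between these cultures. Further alternatives were 2 scalings, a filter on dim probe sets, another prior, array weights, all probe sets of the table, averaging the probe sets of a gene and each array left out. Some entries of the lists are not reported here.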

Additional observations from a re-analysis of the deposited data

How the results depend on the processing

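The median difference of the 9 members stayed between -0.13 and 0.03 under every alternative run, and was above 0 only without control replicate 1 (0.03). None of the 134 recomputed differences of single members moved by more than 1 SD of its replicates, and 6 changed sign: Sulf1 in the paired fit of numbers 1 and 2 (-0.12) and without control replicate 3 (-0.25), Hs6st1 without control replicate 1 (0.03), and Ext1 with array medians subtracted and with control replicate 1 or Sirt1 inactive replicate 2 left out, within 0.09 of 0. Many of the 134 could not move. The replicate block over 6 arrays, the other prior, all probe sets of the table, the filter on dim probe sets and averaging 1 probe set per gene leave a difference as it is. Leaving out 1 of the 3 arrays of a group shifts its mean by less than 1 SD of the replicates, whatever the values. All values with an array left out therefore had to stay within it. Among them were the turn of Sulf1 to -0.25 and the change of Hs3st1 from -0.45 to -0.09 without control replicate 1. For Sulf1 the SD also includes control replicate 3 (SD 1.51 in control cultures). For Hs6st2, whose mean is below the median brightness, the filter on dim probe sets gives no value. The count of probe sets that passed was 0 in every fit over 5 or 6 arrays, the replicate block included, where 1741 probe sets had an unadjusted p under 0.05, compared with 830 without it. A paired fit of numbers 1 and 2 alone, chosen after seeing the data, called 19 probe sets. Hs3st2 was among them at a difference of -0.71, and Hs3st1 (-0.74) and Hs6st2 (-0.40) were not; that fit leaves out the pair with the smallest difference of Hs3st2. The replicate block over all 6 arrays changed no call. With 3 arrays a group, the unadjusted 95% interval of a typical probe set reached 0.19 to either side, and passing over all probe sets needs a larger difference than that: Sirt1 at -0.41 (SE 0.08) did not pass.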
